A study of Mus musculus with 6 samples.

Results

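The genes described here are 54 genes of DNA replication and deoxynucleotide supply, listed by name and measured by every array probe whose platform annotation names one of them. The list gave 83 probes for 50 of the 54 genes, of 25697 probes for 16590 named genes on the array, and no probe was named for *Gins1*, *Gins2*, *Rfc3* or *E2f8*. Expression was read from 6 Illumina mouse BeadChips, 3 labelled knock out and 3 labelled wildtype, each hybridised with total RNA of C57BL/6 calvaria cells, the osteoblast-forming cells of the skull vault. The labels give the genotype of the first group as an *Mmp13* knockout. The paper instead describes these arrays as Osx1+ calvaria cells sorted by GFP, with the ERα gene deleted in the first group (genotype ERα f/f;GFP:*Osx1-Cre*) and intact in the second (GFP:*Osx1-Cre*), so by that account both groups carried the Cre transgene, which is driven by the *Osx1* promoter of osteoblast progenitors. *Mmp13* itself was higher on the arrays labelled as its knockout (log2 intensities of 12.41, 12.91 and 12.79, against 8.91, 9.42 and 9.73 on the arrays labelled wildtype), which goes against that label, and the 2 probes of *Esr1*, the gene of ERα, were not detected on any array. The groups are therefore called by their labels below, and every direction holds for the arrays so labelled. Neither age nor sex is given in the labels. The paper's methods speak of calvaria cells taken from pups a few days old, without naming these arrays. The sources do not say if a group's 3 arrays held RNA of independent cultures or animals. The p-values then measure only how far the arrays spread, which may be technical. Each array detected between 40.2% and 43.6% of its probes. Across probes, the arrays labelled knock out correlated with each other at r = 0.991 to 0.995 and those labelled wildtype at 0.929 to 0.982, with wildtype replicate 2 farthest from the others.

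DNA replication begins when the origin recognition complex, with CDC6 and CDT1, loads the MCM2-7 helicase onto origins, a step called licensing. CDC7 kinase, CDC45, MCM10 and the GINS complex then activate the helicase, and polymerases copy the strands, tethered by the PCNA clamp that replication factor C loads, while ribonucleotide reductase, thymidylate synthase and thymidine kinase supply deoxynucleotides. Many of these genes are transcribed in late G1 and S phase through E2F transcription factors, and their mRNA is low in cells that do not divide.

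Replication genes were higher on the arrays labelled knock out. They were chosen with earlier results of these data known, so their counts are a description and no test of the list. Of the 43 genes with a probe that could be tested, 28 rose and none fell, which is 65.1% of those tested, against 9.62% of all 7695 tested genes called higher, 9.93% called lower and 19.5% called in either direction (limma, adjusted p under 0.05 over all 11089 probes tested). At an unadjusted p under 0.05, 32 were higher and 0 lower. The share of all tested genes at that level is not given, here or for the lists below. The percentages above are at the adjusted threshold. The brightest tested probe stands for each gene, and a probe was tested where its detection p was under 0.01 on at least 3 of the 6 arrays. The median log2 fold change of the 43 genes was 0.73, a 1.66-fold difference, against -0.04 over all tested genes, and it ran between -0.02 for *Ccne1* and 2.42 for *Mcm7*. 16 of the 28 genes rose by more than 1 on the log2 scale, 10 by 0.5 to 1 and 2 by less than 0.5. On 33 of the 43 genes every array labelled knock out lay above every array labelled wildtype, and on none did every one lie below, against 20.7% and 23.4% of all tested genes. *Prim1*, *Mcm7* and *Ccne2* were detected on 0, 1 and 2 of the 3 arrays labelled wildtype and passed the detection filter through the arrays labelled knock out. Of the 40 genes detected on all 6 arrays, 25 rose. Leaving out 1 array at a time, 20 to 30 of the genes rose and 0 fell, 30 of them without wildtype replicate 2, with medians of 0.72 to 0.79. With each array scaled by its median in place of quantile normalization, 17 rose and 0 fell, and the 11 calls lost included *Mcm4*, *Rfc2*, *Rfc4*, *Dnmt1* and *Nasp*. With 3 arrays against 3 an exact permutation test of a single gene cannot go below a p of 0.1, so the calls rest on limma's fit across all probes.

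**Figure D1:**
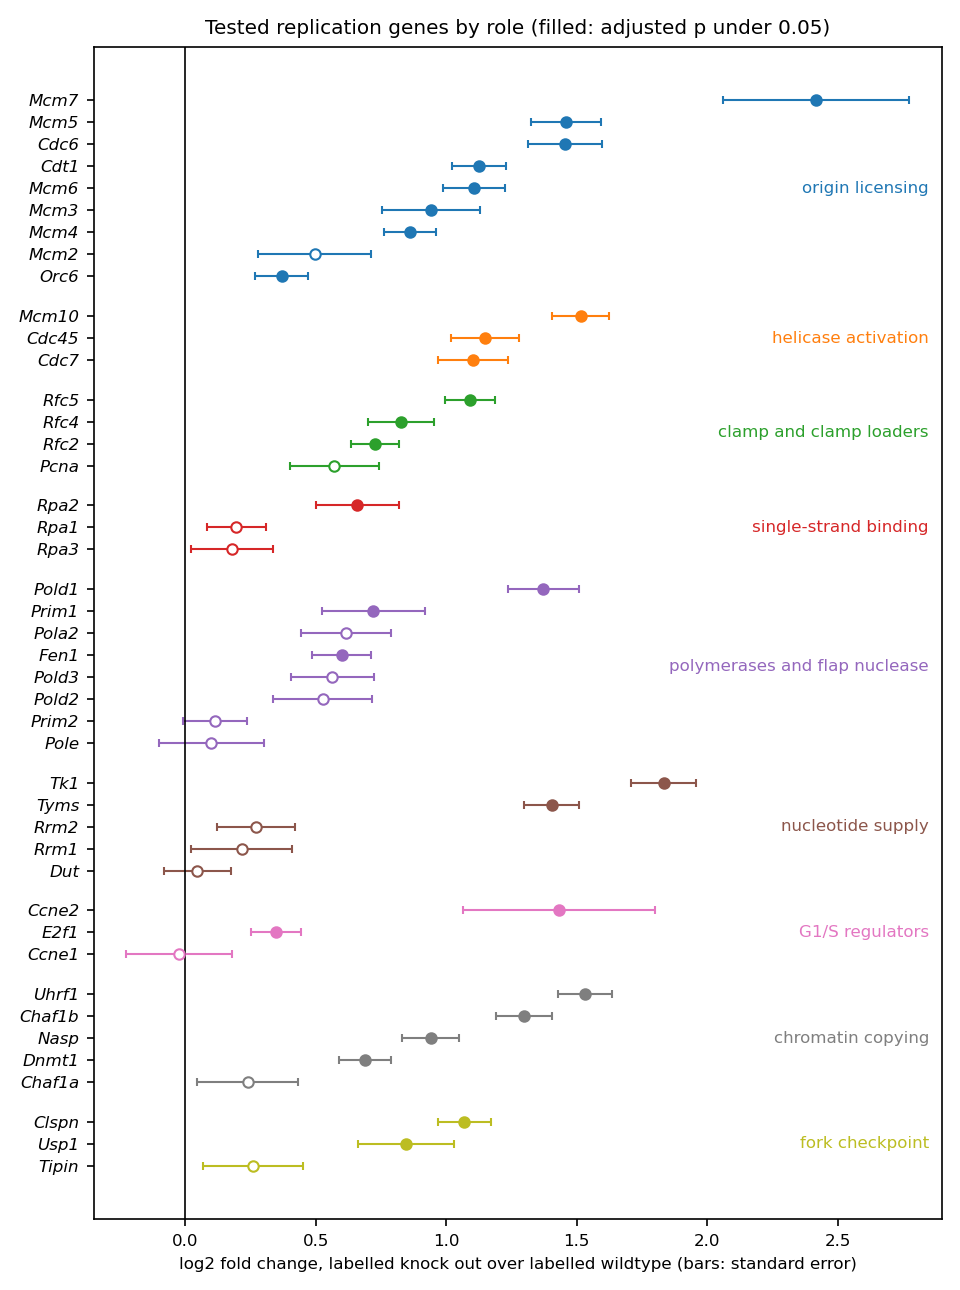
Log2 fold change of each tested replication gene, knock out over wildtype as labelled, by role, with the standard error of limma's fit as a bar (3 arrays per group). Filled points passed an adjusted p of 0.05, and all 28 of these lie to the right of 0, while the other 15 lie between -0.02 and 0.62.

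Some cell type markers differed between the groups as well. Of 12 tested macrophage and osteoclast markers, 11 fell on the arrays labelled knock out and *Ctsk* was not called. Only 4 of the 12 were detected on all 6 arrays, and 3 of these fell. The summed level of the 15 with a probe was 6076 to 6481 on the arrays labelled knock out. On the arrays labelled wildtype that sum was 8719 to 10163. *Ptprc*, *Itgam* and *Acp5* were not detected on any array. Of 8 tested osteoblast markers, 4 rose and *Sp7*, the gene of OSX1 and so of the sorted cells, fell by 0.80 on the log2 scale (limma adjusted p = 0.0073) though detected on all 6 arrays. No endothelial or erythroid marker was detected on enough arrays to be tested, and the 1 tested lymphoid marker, *Cd3e*, was not called. In bulk RNA, fewer cells of a type and less RNA per cell cannot be told apart, and the part of these markers in the change of the replication genes was not tested.

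Before the roles are taken in turn, 4 promoters are shown, because the E2F element is the sequence feature that the field ties to this set of genes. Windows run from 250 bases before to 50 bases after the annotated start, on the gene's own strand, from RefSeq (GRCm38.p6), and capitals mark the E2F elements TTTCCCGC, TTTCGCGC, TTTGCCGC and TTTGGCGC, searched on both strands, of which TTTCGCGC and TTTGGCGC can overlap on opposite strands. *Mcm5*, *Mcm6* and *Clspn* are shown as genes that rose and hold an element, and *Tk1* as the gene with the largest rise among those detected on all 6 arrays, whose window holds none.
*Mcm5*, chr8:75109259-75109558, plus strand: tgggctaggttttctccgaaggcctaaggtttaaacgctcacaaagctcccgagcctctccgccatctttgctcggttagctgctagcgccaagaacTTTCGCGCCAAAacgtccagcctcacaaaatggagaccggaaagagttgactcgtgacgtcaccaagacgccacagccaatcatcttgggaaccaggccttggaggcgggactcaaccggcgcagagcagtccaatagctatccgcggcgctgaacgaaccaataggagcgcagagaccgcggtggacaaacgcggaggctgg
*Mcm6*, chr1:128359656-128359955, minus strand: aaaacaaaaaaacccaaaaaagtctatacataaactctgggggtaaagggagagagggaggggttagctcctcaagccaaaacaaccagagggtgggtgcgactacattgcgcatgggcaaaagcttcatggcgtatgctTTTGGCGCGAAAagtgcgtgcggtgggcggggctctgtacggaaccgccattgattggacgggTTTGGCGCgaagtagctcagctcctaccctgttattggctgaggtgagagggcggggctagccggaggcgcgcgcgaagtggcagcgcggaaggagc
*Clspn*, chr4:126556730-126557029, plus strand: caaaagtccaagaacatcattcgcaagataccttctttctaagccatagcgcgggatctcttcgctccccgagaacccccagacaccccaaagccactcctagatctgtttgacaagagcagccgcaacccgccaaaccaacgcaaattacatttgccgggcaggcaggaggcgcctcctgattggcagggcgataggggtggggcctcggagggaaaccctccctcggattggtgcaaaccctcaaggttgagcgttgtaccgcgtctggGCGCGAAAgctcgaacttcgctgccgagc
*Tk1*, chr11:117825965-117826264, minus strand: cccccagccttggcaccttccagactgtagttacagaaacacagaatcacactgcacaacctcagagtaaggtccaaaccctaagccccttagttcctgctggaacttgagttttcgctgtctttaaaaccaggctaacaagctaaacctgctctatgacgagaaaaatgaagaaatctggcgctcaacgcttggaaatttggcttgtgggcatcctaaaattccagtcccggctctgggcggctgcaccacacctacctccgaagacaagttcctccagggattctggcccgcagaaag
*Mcm5* and *Mcm6* each hold the overlapping pair, in *Mcm5* with first bases at -153 and -149 from the start, and *Mcm6* holds one more element at -47. The single element of *Clspn* lies after the start, at 22. Of the 54 genes, 43 had a window in the RefSeq table, and the others were *Gmnn*, *Mcm4*, *Gins1*, *Gins2*, *Rfc2*, *Dscc1*, *Prim2*, *Pole*, *Ccne2*, *Tipin* and *Usp1*. An element was found in 16 of the 43 genes (37.2%), against 300 of 6297 tested genes with a window (4.76%) and 704 of 27025 genes in all (2.6%). The 16 were *Orc1*, *Cdc6*, *Cdt1*, *Mcm3*, *Mcm5*, *Mcm6*, *Mcm7*, *Rfc3*, *Pola1*, *Pold1*, *Pold3*, *Pole2*, *Uhrf1*, *Dnmt1*, *Hells* and *Clspn*. Among genes with a window, 10 of the 24 that rose (41.7%) held an element, and so did 1 of the 12 tested and not called (8.33%), which was *Pold3*. Of the genes with a window that were not tested, *Orc1*, *Rfc3*, *Pola1*, *Pole2* and *Hells* held an element, and *E2f8* and *Slbp* held none. Whether these shares differ was not tested. The 23 elements had their first base between -219 and 40 from the start, with a median of -27. The CCAAT box, searched as CCAAT on both strands, was in 26 of the 43 genes (60.5%), against 44.3% of tested genes, and in 13 of the 24 that rose (54.2%) and 8 of the 12 not called (66.7%). A match to these letters is a description of the window and not a measured binding site, and no match says only that these letters are not in the window.

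Nearly all origin licensing genes rose. Of 9 tested, 8 rose and 1, *Mcm2*, did not pass the test, with a median log2 fold change of 1.11. *Mcm7*, a helicase subunit, had the highest fitted log2 fold change, with log2 intensities of 7.56, 7.84 and 7.56 on the arrays labelled knock out (the first labelled replicate 1, the other two sharing a heading, in this order throughout), against 4.95, 4.67 and 6.09 on wildtype replicates 1, 2 and 3. The groups did not overlap, but the wildtype arrays spread over 1.42 and only 1 of them was detected. Its log2 fold change was 2.42 ± 0.36 (SE), 5.34-fold, with a limma adjusted p of 0.006. The size depends on wildtype arrays near the detection limit, and the log2 fold change was 1.34 without background correction and in the authors' normalized table, 1.49 with the saddle-point background fit and 2.87 without wildtype replicate 3, while the call held in all 17 alternatives that tested it. *Mcm4*, another subunit, had 11.12, 11.22 and 11.14 on the arrays labelled knock out, against 10.26, 10.24 and 10.38 on the arrays labelled wildtype. Here both groups were tight and well apart (11.16 ± 0.057 on the arrays labelled knock out and 10.30 ± 0.077 on those labelled wildtype, SD, n = 3 each), and the log2 fold change was 0.86 ± 0.10 (SE, limma adjusted p = 0.0024). Its 2 other tested probes were not detected on any array labelled wildtype and were at least 1.68-fold and 1.46-fold higher on the arrays labelled knock out, a bound set by the detection limit of each array.

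The other licensing genes that rose did so by 0.37 to 1.46 on the log2 scale. *Mcm5* had 10.42, 10.30 and 10.32 on the arrays labelled knock out, against 9.02, 8.64 and 9.01 on the arrays labelled wildtype, a log2 fold change of 1.46 ± 0.13 (SE, limma adjusted p = 0.0011). *Cdc6*, which helps load the helicase, had 7.62 on each array labelled knock out, against 5.93, 6.15 and 6.42 on those labelled wildtype (log2 fold change 1.45 ± 0.14, limma adjusted p = 0.0013). *Cdt1*, its partner in loading, rose by 1.12 ± 0.10 (limma adjusted p = 0.0011). For all 3 the nearest arrays of the groups lay more than 1 apart, several times the spread of the arrays labelled knock out. The arrays labelled wildtype spread wider, over 0.37 in *Mcm5*, 0.48 in *Cdc6* and 0.16 in *Cdt1*. *Mcm6* rose by 1.11 ± 0.12 and *Mcm3* by 0.94 ± 0.19 (limma adjusted p = 0.0019 and 0.019), the call of *Mcm3* being lost without the second array of the shared heading (adjusted p = 0.0593). *Orc6*, an origin recognition subunit, rose by 0.37 ± 0.10 (limma adjusted p = 0.0495), a call lost without any one array other than wildtype replicate 3 (adjusted p 0.0728 to 0.176).

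*Mcm2* is the helicase subunit that did not pass the test. It had 8.02, 8.19 and 8.15 on the arrays labelled knock out, against 7.59, 8.07 and 7.21 on those labelled wildtype. The arrays labelled wildtype spread over 0.86, and replicate 2 lay among the arrays labelled knock out. Its log2 fold change was 0.50 ± 0.22 (SE, limma adjusted p = 0.16), and without wildtype replicate 2 it was 0.72 (adjusted p = 0.014). *Orc1*, the largest origin recognition subunit, was not detected on any array, and *Gmnn*, the gene of the CDT1 inhibitor geminin, was detected on 1 array labelled knock out only, so neither was tested.

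All 3 tested genes of helicase activation rose. *Mcm10*, which binds the activated helicase, had 8.31, 8.50 and 8.29 on the arrays labelled knock out, against 6.79, 6.84 and 6.92 on those labelled wildtype. The groups were separated by far more than the spread in either (8.36 ± 0.12 on the arrays labelled knock out and 6.85 ± 0.070 on those labelled wildtype, SD, n = 3 each), with a log2 fold change of 1.52 ± 0.11 (SE, 2.86-fold, limma adjusted p = 0.00051). *Cdc45*, a part of the active helicase, had 7.24, 7.27 and 7.43 on the arrays labelled knock out, against 5.96, 6.31 and 6.22 on the arrays labelled wildtype. *Cdc7*, the kinase that triggers activation, had 7.91, 8.02 and 7.95 on the arrays labelled knock out, against 6.61, 6.99 and 6.98 on the arrays labelled wildtype. Both rose with no overlap, by 1.15 ± 0.13 and 1.10 ± 0.13 (limma adjusted p = 0.0022 and 0.0029).

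Of the sliding clamp and its loaders, 3 of 4 tested genes rose, all of them loader subunits. *Rfc5* had 8.02, 7.97 and 8.01 on the arrays labelled knock out, against 6.99, 6.85 and 6.88 on those labelled wildtype. *Rfc2* had 10.37, 10.36 and 10.40 on the arrays labelled knock out, against 9.66, 9.60 and 9.69 on the arrays labelled wildtype. In both genes the arrays of a group lay at most 0.14 from each other, and the groups did not overlap. The log2 fold changes were 1.09 ± 0.097 for *Rfc5* (2.13-fold, limma adjusted p = 0.00097) and 0.73 ± 0.093 for *Rfc2* (1.66-fold, limma adjusted p = 0.0035). *Rfc4* rose by 0.83 ± 0.13 (limma adjusted p = 0.007), while its second probe differed by 0.34 with overlapping groups (adjusted p = 0.31). *Pcna*, the clamp itself, had 7.77, 7.97 and 8.08 on the arrays labelled knock out, against 7.48, 7.05 and 7.58 on the arrays labelled wildtype. These values did not overlap, yet the log2 fold change of 0.57 ± 0.17 missed the threshold (limma adjusted p = 0.063), which it passed without wildtype replicate 3 (adjusted p = 0.032). *Dscc1*, a subunit of another clamp loader, was detected on 1 array labelled knock out only and was not tested.

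The 3 subunits of replication protein A, which coats single-stranded DNA, had a median log2 fold change of 0.20, and 1 of the 3 rose. *Rpa2* had 7.68, 7.25 and 7.44 on the arrays labelled knock out, against 7.01, 6.74 and 6.63 on those labelled wildtype, and rose by 0.66 ± 0.16 (SE, limma adjusted p = 0.034). That call was lost without any one array labelled knock out or without wildtype replicate 1 (adjusted p 0.0566 to 0.112), and its second probe was not called. *Rpa1* had 11.41, 11.31 and 11.26 on the arrays labelled knock out, against 10.97, 11.21 and 11.21 on the arrays labelled wildtype. Its groups lay close together without overlapping, and the log2 fold change of 0.20 ± 0.11 did not pass the test (limma adjusted p = 0.26). *Rpa3* differed by 0.18 ± 0.16 with overlapping groups (limma adjusted p = 0.44).

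Polymerase genes divided. Of 8 tested genes of the polymerases and the flap nuclease, 3 rose, and 6 had an unadjusted p under 0.05. *Pold1*, the catalytic subunit of polymerase delta, had 9.53, 9.46 and 9.20 on the arrays labelled knock out, against 7.85, 8.08 and 8.14 on those labelled wildtype. Every array labelled knock out lay more than 1 above every array labelled wildtype, and the log2 fold change was 1.37 ± 0.14 (SE, 2.59-fold, limma adjusted p = 0.0015). *Fen1*, which trims Okazaki fragments, rose by 0.60 ± 0.11 (limma adjusted p = 0.015), a call lost without replicate 1 or the first shared-heading array of those labelled knock out, or without wildtype replicate 1 (adjusted p 0.0605 to 0.0699). *Prim1*, the catalytic primase subunit, was not detected on any array labelled wildtype and was at least 1.10-fold higher (limma adjusted p = 0.0496), a call lost without any one array other than wildtype replicate 3 (adjusted p 0.0585 to 0.160). Over all 17 alternatives that tested it, the call of *Prim1* was lost in 14, no background correction, cyclic loess and the authors' normalized table among them.

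The other tested polymerase and primase genes did not pass the test. *Pola2*, *Pold2* and *Pold3* had log2 fold changes of 0.62 ± 0.17, 0.53 ± 0.19 and 0.56 ± 0.16, with limma adjusted p of 0.054, 0.103 and 0.054, and in none of the 3 did the groups overlap. In each, wildtype replicate 2 was the highest array of its group, and without it the adjusted p were 0.0085, 0.014 and 0.0098. *Pole*, the catalytic subunit of polymerase epsilon, had 5.91, 6.11 and 6.19 on the arrays labelled knock out, against 6.07, 6.29 and 5.56 on the arrays labelled wildtype. Its groups overlapped fully, with a log2 fold change of 0.10 ± 0.20 (limma adjusted p = 0.74). *Prim2*, the large primase subunit, differed by 0.11 ± 0.12 (limma adjusted p = 0.53). *Pola1* and *Pole2* were not detected on any array.

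In nucleotide supply, the enzymes that make thymidylate rose and the others did not pass the test. *Tk1*, the S-phase thymidine kinase, had 9.61, 9.66 and 9.53 on the arrays labelled knock out, against 7.77, 7.95 and 7.59 on those labelled wildtype. The gap between the nearest arrays of the groups was several times the range within either, and the log2 fold change was 1.83 ± 0.12 (SE, 3.56-fold, limma adjusted p = 0.00048). Its second tested probe was not detected on any array labelled wildtype and was at least 2.82-fold higher. *Tyms*, thymidylate synthase, had 10.06, 10.08 and 9.96 on the arrays labelled knock out, against 8.67, 8.51 and 8.71 on the arrays labelled wildtype, a log2 fold change of 1.40 ± 0.11 (2.65-fold, limma adjusted p = 0.00057). *Rrm1* and *Rrm2* encode the large and small subunits of ribonucleotide reductase. *Rrm1* had 9.64, 9.62 and 9.60 on the arrays labelled knock out, against 9.22, 9.85 and 9.14 on the arrays labelled wildtype. Wildtype replicate 2 was the highest of all 6 arrays, and the log2 fold change of 0.22 ± 0.19 did not pass the test (limma adjusted p = 0.45) but did without that replicate (0.44, adjusted p = 0.027). *Rrm2* had 8.62, 8.42 and 8.27 on the arrays labelled knock out, against 8.13, 7.99 and 8.38 on the arrays labelled wildtype, 0.27 ± 0.15 (limma adjusted p = 0.24), while its second probe rose by 0.59 ± 0.14 (limma adjusted p = 0.029). *Dut*, which removes dUTP, differed by 0.05 ± 0.13 with overlapping groups (limma adjusted p = 0.82).

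Among the regulators of the G1 to S transition, *Ccne2* and *E2f1* rose by amounts close to the limit of the test. *E2f1*, a transcription factor of the family named above, had 9.19, 9.15 and 9.09 on the arrays labelled knock out, against 8.76, 8.80 and 8.82 on those labelled wildtype. The groups were tight and apart, though by a small step, with a log2 fold change of 0.35 ± 0.095 (SE, 1.27-fold, limma adjusted p = 0.0484). *Ccne2*, a cyclin E gene, had 6.78, 7.07 and 6.93 on the arrays labelled knock out, against 5.44, 4.74 and 6.30 on the arrays labelled wildtype, which spread over 1.57, and rose by 1.43 ± 0.37 (limma adjusted p = 0.041), or by 0.73 without background correction (adjusted p = 0.023). Its call was lost without any one array labelled knock out or without wildtype replicate 1 (adjusted p 0.110 to 0.135), and that of *E2f1* without any one array other than wildtype replicate 3 (adjusted p 0.0569 to 0.155). *Ccne1*, the other cyclin E gene, had 7.43, 7.28 and 7.49 on the arrays labelled knock out, against 7.50, 7.77 and 7.0 on the arrays labelled wildtype. It was the single tested member below 0, with overlapping groups (log2 fold change -0.02 ± 0.20, limma adjusted p = 0.94).

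Genes that copy chromatin and DNA methylation behind the fork rose, 4 of 5 tested. *Uhrf1*, which brings DNA methyltransferase to newly copied DNA, had 10.77, 10.68 and 10.72 on the arrays labelled knock out, against 9.23, 9.07 and 9.26 on those labelled wildtype. Each group was tight (10.72 ± 0.045 on the arrays labelled knock out and 9.19 ± 0.10 on those labelled wildtype, SD, n = 3 each), and the log2 fold change of 1.53 ± 0.10 (SE, 2.89-fold) had the lowest adjusted p of all members (limma, 0.00047). *Dnmt1*, the maintenance methyltransferase, rose by 0.69 ± 0.10 (limma adjusted p = 0.0059). *Chaf1b*, a subunit of the histone chaperone CAF-1, had 8.44, 8.49 and 8.47 on the arrays labelled knock out, against 7.10, 7.09 and 7.32 on the arrays labelled wildtype, a rise of 1.30 ± 0.11 (limma adjusted p = 0.00078). *Chaf1a*, the large subunit of the same complex, had 7.40, 7.39 and 7.22 on the arrays labelled knock out, against 7.20, 7.41 and 6.69 on the arrays labelled wildtype. Here the groups overlapped, since wildtype replicate 2 was as high as the highest arrays labelled knock out (0.24 ± 0.19, limma adjusted p = 0.41). *Nasp*, a histone chaperone, rose by 0.94 ± 0.11 (limma adjusted p = 0.0024). That probe kept its call without wildtype replicate 1 (adjusted p = 0.015), but another probe of *Nasp* was then the brightest and was not called. *Hells*, a chromatin remodeller, and *Slbp*, which binds histone mRNA, were not detected on any array.

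Of 3 genes that guard the fork, 2 rose. *Clspn*, the gene of claspin, had 8.22, 8.38 and 8.40 on the arrays labelled knock out, against 7.22, 7.29 and 7.28 on those labelled wildtype. The groups were far apart for their spread, and the log2 fold change was 1.07 ± 0.10 (SE, 2.10-fold, limma adjusted p = 0.0012), with 1.08 on its second tested probe. A further tested probe of *Clspn* was not detected on any array labelled wildtype and was at least 1.72-fold higher. *Usp1*, a deubiquitinase that acts on PCNA, rose by 0.85 ± 0.18 (limma adjusted p = 0.024), and by 0.88 and 1.15 on its 2 other tested probes. The call of its first probe was lost without any one array labelled knock out or without wildtype replicate 1 (adjusted p 0.0757 to 0.0956). *Tipin*, which travels with the fork, had 9.17, 9.36 and 9.25 on the arrays labelled knock out, against 9.14, 8.59 and 9.28 on the arrays labelled wildtype, so that wildtype replicate 3 lay among the arrays labelled knock out and replicate 1 just under them (0.26 ± 0.19, limma adjusted p = 0.36).

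**Figure D2:**
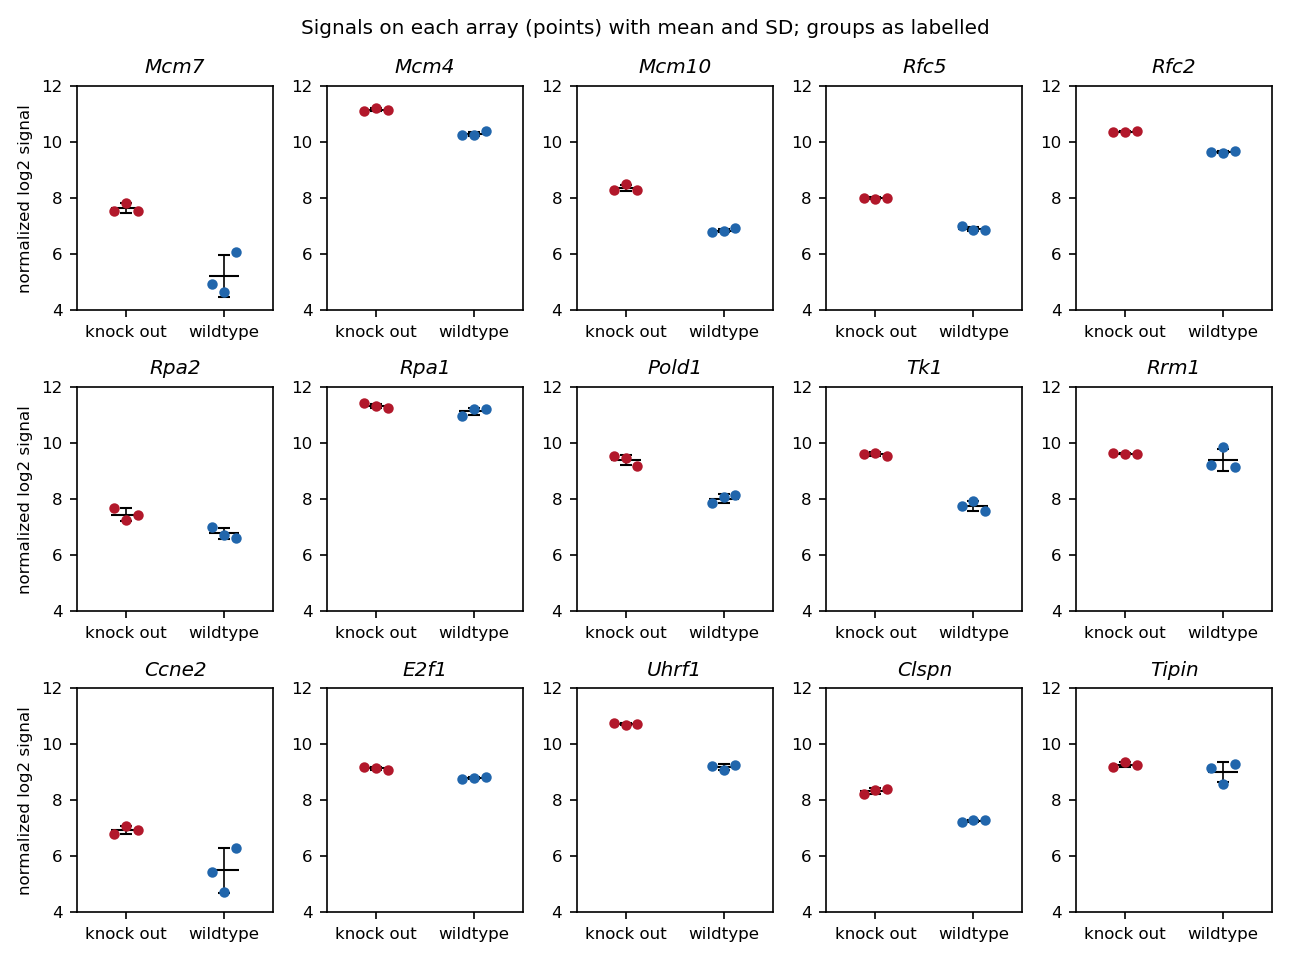
Normalized log2 intensity of 15 replication genes, 1 panel each, on the arrays labelled knock out (left in each panel) and those labelled wildtype (right). Points are single arrays, and bars give the mean and SD of 3 arrays. The groups overlap in *Rrm1* and *Tipin* and are apart in the other panels.

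The 3 arrays of each group were close to each other over these genes together. The median of the members' differences from each gene's mean over the 6 arrays was 0.37, 0.43 and 0.41 on the arrays labelled knock out and -0.38, -0.42 and -0.43 on wildtype replicates 1, 2 and 3. The summed level of the 50 genes with a probe, on the linear scale after normalization, was 22210 to 22956 on the arrays labelled knock out and 12508 to 13370 on those labelled wildtype. The members were tighter on the arrays labelled knock out, with a median SD of 0.090 against 0.18 on those labelled wildtype, and 33 of 43 had the smaller SD there. All tested genes leaned the same way, with a median SD of 0.11 against 0.19, so this is not particular to the members. The spread on the arrays labelled wildtype had no single form. Of 62 tested member probes, 21 were ordered replicate 2, 1, 3 from low to high and 14 in the opposite order (33.9% and 22.6%, against 27.9% and 30.3% of all tested probes). The 2 orders met within 1 gene. On 2 probes of *Mcm6*, wildtype replicates 1, 2 and 3 had 7.88, 8.35 and 7.60, and 7.84, 8.43 and 7.47, with replicate 2 highest. Another probe of *Mcm6* had 4.74, 4.51 and 5.56 on the same arrays, with replicate 2 lowest, though detected on 1 of the 3 only. *Nasp* had a probe of 8.86, 8.88 and 8.86 on the arrays labelled knock out, against 6.90, 6.03 and 7.74 on wildtype replicates 1, 2 and 3, while the probe that stands for the gene had a narrower spread over the same wildtype arrays (7.31, 7.50 and 7.56). What sets this order was not tested.

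**Figure D3:**
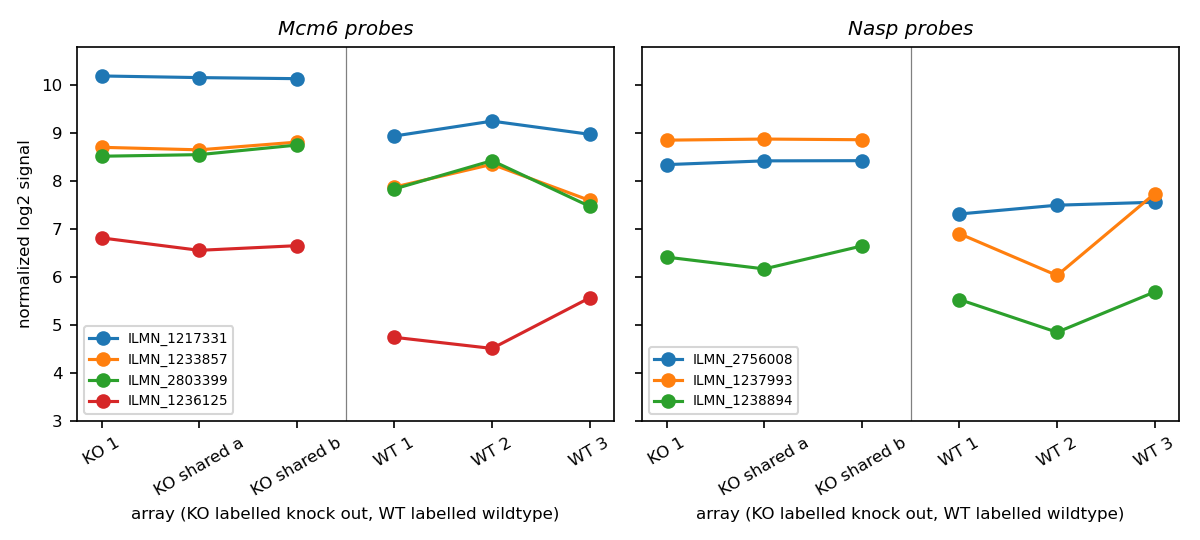
Normalized log2 intensity of the 4 tested probes of *Mcm6* and the 3 of *Nasp* on each of the 6 arrays, those labelled knock out (KO) left of those labelled wildtype (WT). Lines join the arrays of 1 probe and mark no order of the arrays. Wildtype replicate 2 is the highest of its group on 3 probes of *Mcm6* and the lowest on the fourth, and 2 probes of *Nasp* have it lowest.

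Of the 12 genes with more than 1 tested probe, all probes rose in 6 (*Clspn*, *Mcm4*, *Nasp*, *Tk1*, *Tyms* and *Usp1*), some in 4 (*Mcm6*, *Rfc4*, *Rpa2* and *Rrm2*) and none in 2 (*Prim2* and *Tipin*). In *Clspn*, *Mcm4* and *Tk1* some of these probes were not detected on any array labelled wildtype. They passed the detection filter through the arrays labelled knock out. No probe of any member fell, and 41 of the 62 tested probes rose. Over all tested genes, taken with 1 probe each, 9.62% were called higher.

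Beyond the members, 93 further genes of the same pathway were read from 5 lists, and fewer of them rose. Members and lists were both chosen with earlier results of these data known, so the choice itself could set this contrast. Of 69 further genes tested, 12 rose and 1 fell, where 9.62% of all tested genes were called higher and 9.93% lower. Of the 62 detected on all 6 arrays, 9 rose and 1 fell. The median log2 fold change of the 69 was 0.06, and 16 were higher and 6 lower at an unadjusted p under 0.05. Whether these counts, or those of the single lists, differ from the shares over all tested genes was not tested. Without any one array labelled knock out or without wildtype replicate 1 the count that rose was 6. Other replisome and origin genes gave 7 higher and 1 lower of 22 (median 0.28). *Timeless*, the partner of TIPIN, rose by 1.36 ± 0.20, *Lig1*, the ligase that joins Okazaki fragments, by 1.34 ± 0.17, and *Asf1b*, a histone chaperone, by 1.01 ± 0.17 (limma adjusted p = 0.0064, 0.0030 and 0.0098). *Pold4*, the smallest polymerase delta subunit, had 8.47, 8.59 and 8.62 on the arrays labelled knock out, against 9.05, 9.27 and 8.96 on those labelled wildtype, and fell by 0.53 on the log2 scale (limma adjusted p = 0.027), a call lost without any one array labelled knock out or without wildtype replicate 1 (adjusted p 0.0841 to 0.101). *Rbbp7*, the gene of a histone-binding protein, had 11.18, 10.90 and 10.94 on the arrays labelled knock out, against 9.37, 6.57 and 10.30 on those labelled wildtype. That spread left a log2 fold change of 2.26 ± 0.87 short of the test (limma adjusted p = 0.12), which it passed without wildtype replicate 2 or 3 (1.18 and 3.04, adjusted p = 0.020 and 0.029).

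Regulators outside the member list were read from a list of their own. Of 10 tested E2F, cyclin and CDK genes of the G1 to S transition, 3 rose (median 0.06). *Ccna2*, a cyclin of S phase and G2, was not detected on any array labelled wildtype and was at least 1.25-fold higher (limma adjusted p = 0.0075). *Rbl1*, a member of the retinoblastoma family, rose by 0.66 and *Cdk2*, the partner of cyclins E and A, by 0.49 (limma adjusted p = 0.014 and 0.026), both calls lost without any one array labelled knock out or without wildtype replicate 1 (adjusted p 0.0527 to 0.109). Of 15 other deoxynucleotide genes, 2 rose (median 0.01), where 9.62% of all tested genes were called higher. These were *Dctpp1*, which breaks down non-canonical dCTP, by 0.51, and *Samhd1*, a hydrolase of deoxynucleotides, by 0.45 (limma adjusted p = 0.018 and 0.023). Their calls were lost without the same arrays (adjusted p 0.0618 to 0.108).

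The pathways that feed or parallel nuclear replication gave no call. For de novo purine and pyrimidine synthesis limma called none of 14 tested genes (median 0.04), with 2 higher and 1 lower at an unadjusted p under 0.05. Values ran between -0.80 and 1.89, 8 above 0 and 6 below, and the lowest limma adjusted p was 0.053. The summed level of this list was 6124 to 6405 on the arrays labelled knock out and 4950 to 5990 on those labelled wildtype. For mitochondrial DNA replication limma called none of 8 (median -0.16), with 0 higher and 2 lower at an unadjusted p under 0.05, and 6 of the 8 values were below 0. Whether these lists differed from the members was not tested.

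**Figure D4:**
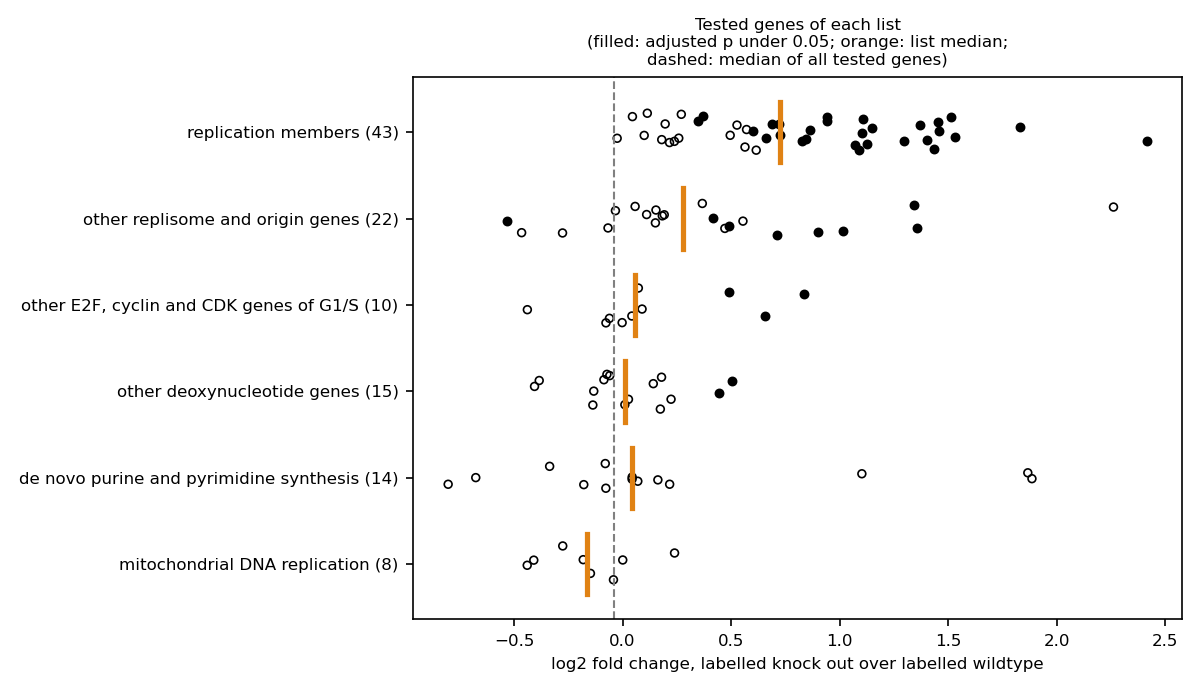
Log2 fold change of every tested gene, knock out over wildtype as labelled, in the replication members and in the 5 lists of further pathway genes, with the median of each list as a vertical bar and that of all tested genes as a dashed line. The members centre on 0.73 and the lists on 0.28, 0.06, 0.01, 0.04 and -0.16.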

How the data were processed

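The 6 arrays carried total RNA from calvaria cells, 3 labelled knock out and 3 labelled wildtype. The authors read the arrays with an Illumina BeadArray reader and BeadStudio and deposited signal intensity values with a detection p-value for each probe. The deposited intensities are not normalized, and no background had been subtracted. The authors also deposited a table of log2 values, quantile normalized with lumi (version: not given in the sources used here). Probes of both tables were linked by their ranks on the 4 arrays that both name, and all 25697 were linked one to one. The heading shared by 2 arrays labelled knock out gives them no replicate number, so they were used by group. The headings of the detection columns name no array, and each was read with the signal column on its left, whose order its values follow. The platform's annotation gave 1 gene to 23978 probes and none to 1719, and RefSeq served to update symbols.

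The function neqc (limma 3.58.1, R 4.3.3, offset 16) corrected background and normalized by quantiles, taking the statistics of the negative controls from detection p-values. A probe entered the test where 3 or more of the 6 arrays had a detection p below 0.01. The model, lmFit with eBayes, had no covariate, and its two-sided p-values were corrected after Benjamini and Hochberg over 11089 probes, at a threshold of 0.05. The probe with the highest mean over all 6 arrays stands for a gene. Where a whole group lacked detection, the fold is a lower bound set at the detection limit. For arrays, precision is limited by their number. The script was tested on simulated data.

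The members, their roles, the further lists and the markers were chosen with earlier results of these data known. Values on every array were given, in each role, for the gene with the largest rise, that with the largest fall and the brightest. Other members with such values, and *Rbbp7*, were added after their values were seen. From the further lists up to 3 called genes per direction were named. Same-numbered arrays did not deviate together (r = 0.105, -0.055 and -0.05), so the design was not paired. The alternatives were 18 other settings of background correction, scaling, filter, fit and arrays left out.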

Additional observations from a re-analysis of the deposited data

How the results depend on the processing

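No replication gene changed direction with a call under any of the 18 alternatives, and none was called lower. The count of replication genes that rose was 28, stayed at 25 to 33 under all settings that kept the 6 arrays except median scaling, where it was 17, and was 20 to 30 with 1 array left out. Median scaling moved the median of all tested genes to -0.19, against -0.04, and there 328 genes were called higher and 423 lower of those tested, against 740 and 764. The members' median was 0.77 with array weights, 0.57 without background correction and in the authors' normalized table, 0.60 with the saddle-point background fit, 0.79 with cyclic loess, 0.64 with median scaling and without a filter, and 0.72 to 0.79 with 1 array left out (0.78 without replicate 1 and 0.76 without the first shared-heading array of those labelled knock out). In the fit with a replicate block, made on the authors' normalized table, 25 replication genes rose, against 29 on that table without the block. Their median was 0.57 in both. Of the further pathway genes 7 rose with the block, against 13 on that table without it and 12 in the main fit. The block ended the calls of *Orc6* (0.33, limma adjusted p = 0.0673) and *E2f1* (0.31, 0.0877). *Pcna* and *Pold3*, called on that table without the block, were not called with it. *Prim1* was not called on that table with the block (0.29, limma adjusted p = 0.122) or without it (0.083). Of the further genes named above, the block ended the calls of *Ccna2* (0.34, limma adjusted p = 0.0753), *Rbl1* (0.34, 0.0804) and *Samhd1* (0.37, 0.0533). Of those further genes 6 to 15 rose and 0 to 2 fell with 1 array left out. The count that fell was 1. It was 0 with median scaling and 2 with array weights, the authors' normalized table, the trended robust fit, the mean over probes, no background correction, no filter, the saddle-point fit and the stricter filter. Over all tested genes, 310 to 1074 were called higher and 261 to 1322 lower with 1 array left out, fewest without the second shared-heading array labelled knock out and most without wildtype replicate 3. The cause of these differences was not tested.

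Of the 28 genes that rose, 15 kept the call in every alternative that tested them (*Cdc45*, *Cdc6*, *Cdc7*, *Cdt1*, *Chaf1b*, *Clspn*, *Mcm10*, *Mcm5*, *Mcm6*, *Mcm7*, *Pold1*, *Rfc5*, *Tk1*, *Tyms* and *Uhrf1*), and *Mcm7* was not tested under the stricter filter. With 1 array left out, 20 kept it each time on the probe that stands for them here, although another probe of *Nasp*, not called, was the brightest without wildtype replicate 1. Median scaling lost *Mcm4*, *Rfc2*, *Rfc4*, *Orc6*, *Rpa2*, *Prim1*, *Fen1*, *E2f1*, *Dnmt1*, *Nasp* and *Usp1*. Genes near the detection limit, such as *Prim1*, have only a lower bound.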
